A study of Mus musculus with 4 samples.

Results

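The genes described here encode 7 inhibitory receptors of myeloid cells, Pirb, Lair1, Sirpa, Cd200r1, Cd300a, Cd300lf and Pilra, and 3 phosphatases that inhibitory receptors recruit, Ptpn6 (SHP-1), Ptpn11 (SHP-2) and Inpp5d (SHIP-1). They were chosen by name for their role, with no threshold on their values, and Siglece, a sialic acid-binding inhibitory receptor, served as the reference. All 10 genes were among the 35869 listed in each sample, and all 10 were among the 16849 that passed the filter on low values. RNA-seq had been run on CD45+ cells, taken with CD45 microbeads from the stromal vascular fraction of epididymal white adipose tissue (eWAT). The donors were male wild-type C57BL/6 mice that received a normal diet (ND, 10% of calories from fat) or a high-fat diet (HFD, 60%) for 12 weeks from 8 weeks of age. There were 2 samples per diet. The number of mice behind a library was not given, so p-values measure only the spread between these samples, which may be technical.

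An immunoreceptor tyrosine-based inhibitory motif (ITIM) is a short stretch around a tyrosine in the cytoplasmic tail of a receptor. When Src family kinases phosphorylate that tyrosine, the motif binds the SH2 domains of SHP-1, SHP-2 or SHIP-1, and these phosphatases remove phosphates from proteins or inositol lipids of the activating pathways. Many inhibitory receptors have close relatives with short tails that lack the motif and signal through the activating adaptors DAP12 (Tyrobp) or FcRγ (Fcer1g), and macrophages, the main leukocytes of obese adipose tissue, carry many such pairs.

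The coding sequences of the receptor tails were read to check the label. A match was a tyrosine codon with a codon for serine, isoleucine, valine or leucine 2 places before it and a codon for isoleucine, leucine or valine 3 places after it. The tail of Pirb held 3 matches among 5 tyrosine codons, Lair1 2 of 2, Sirpa 3 of 5, Cd300a 2 of 5, Cd300lf 2 of 5, Pilra 1 of 2 and Siglece 1 of 3. Cd200r1 held 0 matches among 3 tyrosine codons and 1 NPxY motif, the kind of site through which this receptor is known to bind Dok adaptors, so it is an inhibitory receptor without an ITIM by this search. A stretch from each tail is shown because it is the part that makes these genes one class. Sequences and positions are from GRCm38 with GENCODE vM21 gene models, all stretches are coding and lie within 1 exon, and capitals mark the tyrosine codon.
Pirb, codon 794, chr7:3712786-3712803, minus strand: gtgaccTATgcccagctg
Lair1, codon 228, chr7:4009790-4009807, minus strand: gtgacgTATatccagctg
Sirpa, codon 436, chr2:129629954-129629971, plus strand: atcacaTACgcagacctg
Cd300a, codon 262, chr11:114899846-114899863, plus strand: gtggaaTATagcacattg
Cd300lf, codon 234, chr11:115117648-115117665, minus strand: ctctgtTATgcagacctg
Pilra, codon 267, chr5:137823571-137823588, minus strand: atcgtgTATgcttccatc
Siglece, codon 432, chr7:43651585-43651602, minus strand: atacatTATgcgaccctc
Cd200r1, codon 297, NPxY, chr16:44794239-44794250, plus strand: aatccactcTAT

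Values were deposited as TPM, which scale each library to the same total, correct for gene length and can be compared between genes. From the smallest steps in the values, 1 read per kb was worth 0.0606 to 0.0711 TPM, or about 37600000 to 46900000 reads per library. Ptprc, which encodes CD45, had 53.7 to 59.4 TPM in the 4 libraries. The summed TPM of 6 macrophage markers was 9149.7 to 9363.8 in ND and 8793.6 to 9434.6 in HFD, with 2 of the 6 called higher (Adgre1 and Cd68) and 0 called lower. All 6 markers of resident macrophages were lower (3500.1 and 3645.9 TPM summed in ND, 1333.1 and 1103.0 in HFD), and all 6 of lipid-associated macrophages were higher (1024.6 and 1073.4, then 7793.3 and 8164.8). Markers called lower were 3 of 6 for monocytes, 5 of 5 tested for neutrophils, 2 of 6 for dendritic cells, 5 of 5 for B cells, 4 of 4 for T cells, 5 of 5 for NK cells, 6 of 6 for mast cells and 1 of 3 tested for eosinophils, and 0 were called higher. Cxcr2 of the neutrophil list, Pax5 of the B cell list and Klre1 of the NK cell list passed the filter only through ND. Of 5 fibroblast markers 3 were called higher (437.9 and 470.4 TPM, then 2269.8 and 4523.9). The defining genes Ly6g of neutrophils and Epx of eosinophils were at or near 0. HFD replicate 1 stood apart in 4 spermatid transcripts, with 6107.9 TPM summed against 1643.6 to 1909.7 in the other libraries. The 4 spermatid transcripts were not called, and of 4 common leukocyte genes 1 was called lower. The part of any of these cell types in the values below was not tested. In bulk RNA, fewer cells of a type and less RNA per cell cannot be told apart.

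The comparison of HFD with ND asked how receptors that share the inhibitory class of Siglece, and the phosphatases they use, stood in the leukocytes of obese adipose tissue. Sirpa, Cd300a, Cd200r1 and Lair1 were 1.78 to 2.55 times as high in HFD as in ND, Pilra and Cd300lf were 2.85 and 4.88 times as high in ND, and none of the phosphatases was called. A gene was called where the limma adjusted p was under 0.05 and the change on the log2(TPM + 1) scale was 1.5-fold or more. By that rule 6 of the 10 genes were called, 4 higher and 2 lower, against 18.4% of all genes tested (8.08% higher and 10.3% lower). Cd300lf had passed the filter on low values only through ND and so had to differ, which leaves 5 called of the other 9. With no fold limit 8 of the 10 passed, Cd300lf among them, against 27.3% of all genes. The 2 HFD values lay outside the range of the 2 ND values for 10 of 10 genes, 5 above and 5 below, against 66.9% of all genes (34.1% above and 32.8% below). Cd300lf, which had to lie below, is among the 5 below. The median log2 fold change was 0.82 over the receptors and -0.09 over the phosphatases, beside 0.06 over all genes tested. The adjusted p-values rest on both ND libraries for the variance, since leaving 1 out leaves only the spread between the 2 HFD libraries. Without ND replicate 1 or without ND replicate 2, limma called 0 genes in the whole table (3471 and 3686 had an unadjusted p under 0.05) and 0 of the 10. The 9 genes other than Cd300lf, which then failed the filter, kept their direction. Without HFD replicate 1 or without HFD replicate 2, 6 of the 10 were called.

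**Figure D1:**
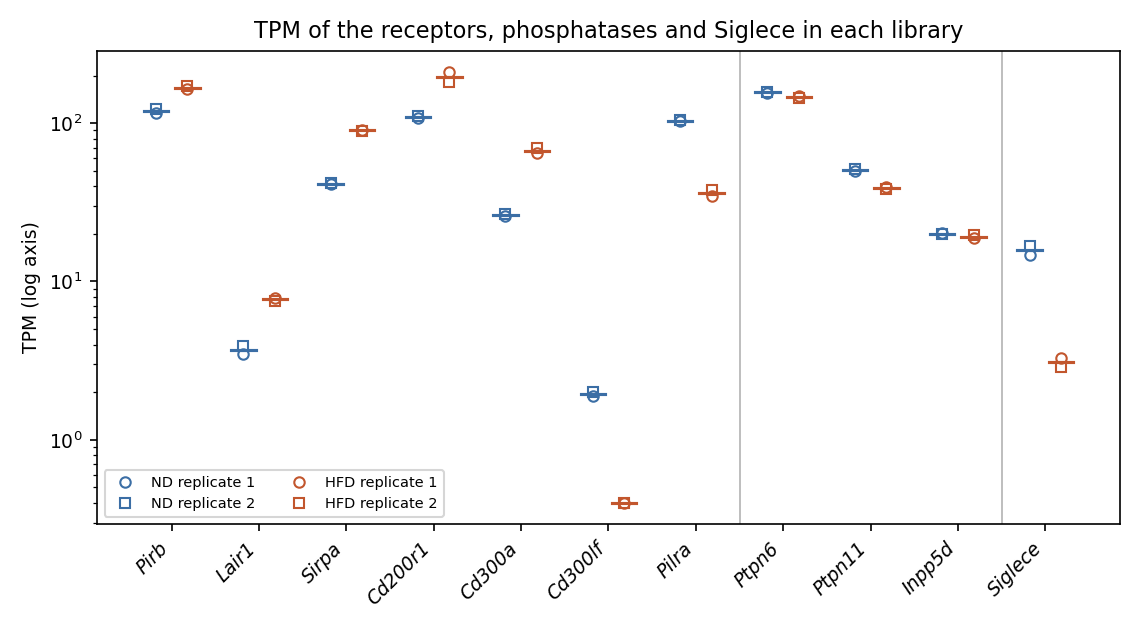
TPM of the 10 genes and of Siglece in each library on a log axis, with 1 point per sample and a bar at the mean of each diet. The HFD points lie above both ND points for Pirb, Lair1, Sirpa, Cd200r1 and Cd300a and below them for Cd300lf, Pilra, the 3 phosphatases and Siglece, with narrow gaps for Ptpn6 and Inpp5d.

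Sirpa encodes SIRPα, the receptor for the "do not eat me" protein CD47 on phagocytes. The gene lies at chr2:129592835-129632228 on the plus strand. It stood at 41.0 and 42.0 TPM on ND, against 91.0 and 88.8 on HFD. Both HFD libraries were high, and the samples within a diet lay close together. The mean rose from 41.5 ± 0.707 to 89.9 ± 1.56 TPM (SD, n = 2 per diet), a log2 fold change of 1.10 (SE 0.05, 95% interval 0.96 to 1.23, limma adjusted p = 0.00500).

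Cd300a, at chr11:114890041-114904654, encodes a receptor for phosphatidylserine and phosphatidylethanolamine, lipids that dying cells expose. It measured 26.1 and 26.6 TPM under ND, compared with 64.6 and 69.6 under HFD. The groups did not overlap, with means of 26.4 ± 0.354 in ND and 67.1 ± 3.54 in HFD (SD, n = 2 per diet). The log2 fold change was the largest increase among the 10 genes, 1.32 (SE 0.06, interval 1.13 to 1.5, limma adjusted p = 0.00536). In size this change stood at the 93.2 percentile of all genes tested, and that of Sirpa at the 90.2 percentile.

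Cd200r1, at chr16:44765736-44794978, encodes the receptor for CD200 and had the highest mean TPM of the 7 receptors in HFD. The level of Pirb, next in that order, is uncertain because part of its sequence occurs in other genes. It had 107.7 and 111.7 TPM in the ND libraries, against 209.6 and 181.2 TPM in HFD. Both HFD values were high, with a wider spread than in ND. The mean rose from 110 ± 2.83 to 195 ± 20.1 TPM, a log2 fold change of 0.82 (SE 0.09, interval 0.55 to 1.09, limma adjusted p = 0.0156).

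Lair1, at chr7:4003402-4063204, encodes a collagen receptor. It was low in all libraries, with 3.5 and 3.9 TPM on ND, against 7.9 and 7.5 on HFD. The means were 3.70 ± 0.283 and 7.70 ± 0.283 TPM (SD, n = 2 per diet), and the HFD values were 2.08 times as high and did not overlap those of ND. The log2 fold change was 0.89 (SE 0.10, interval 0.60 to 1.18, limma adjusted p = 0.0153), and with a pseudocount of 5 in place of 1, which shrinks the change of low genes, it was 0.55 and missed the fold limit.

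Pirb, at chr7:3711409-3720391, encodes the mouse relative of human LILRB receptors and binds MHC class I. It stood at 116.3 and 122.6 TPM on ND, against 164.7 and 170.8 on HFD, so the groups did not overlap (means 119 ± 4.45 and 168 ± 4.31, SD, n = 2 per diet). The log2 fold change was 0.49 (SE 0.05, interval 0.34 to 0.64, limma adjusted p = 0.0143), a ratio of 1.40 that stayed under the fold limit, and Pirb was therefore not called. With median-ratio scaling the adjusted p was 0.0874. Of the 50-base stretches in its exons 34.0% also occur in other genes, and Gm14548 is the gene that shares the largest number, so its reads may have been split. Gm14548 fell, with 24.5 and 25.6 TPM on ND, against 15.6 and 16.3 on HFD, a log2 fold change of -0.62.

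Pilra encodes the inhibitory member of the PILR pair, which binds sialylated O-glycoproteins, and lies at chr5:137821952-137836281 on the minus strand. It measured 103.2 and 104.4 TPM under ND, compared with 34.8 and 38.0 under HFD. Both HFD libraries were low. The mean fell from 104 ± 0.849 to 36.4 ± 2.26 TPM, by 1.49 on the log2 scale (SE 0.06, interval -1.68 to -1.30, limma adjusted p = 0.00503). On the log2(TPM + 1) scale this was the largest change in size among the 10 genes, while Cd300lf had the larger ratio of means and, with a pseudocount of 0.1, the larger log2 fold change (-2.04 against -1.51). Zcwpw1 overlaps its exons on the opposite strand and had 6.0 and 6.4 TPM in the ND libraries, against 3.7 and 3.0 TPM in HFD. The library kit keeps the strand of the RNA, but whether reads were counted by strand was not stated, so reads of this pair may not have been told apart.

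Cd300lf encodes CLM-1, an inhibitory CD300 member, and lies at chr11:115116214-115133992. It was the lowest of the receptors, with 1.9 and 2.0 TPM on ND, against 0.4 and 0.4 on HFD. These values stand for about 139 and 170 reads under ND, against 33.3 and 29.0 under HFD, and the gene passed the filter only through ND. The log2 fold change was -1.08 (SE 0.10, interval -1.37 to -0.78, limma adjusted p = 0.0121), from -2.04 with a pseudocount of 0.1 to -0.36, not called, with a pseudocount of 5. The gene lies inside the span of Rab37 on the opposite strand with no shared exon, and Rab37, which also passed the filter only through ND, fell from 3.9 and 3.7 TPM to 0.6 and 0.8 TPM.

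Pilra and its 2 activating neighbours, Pilrb1 and Pilrb2, fell together. Pilrb1 stood at 11.9 and 12.6 TPM on ND, against 2.4 and 2.3 on HFD, a log2 fold change of -1.98 (limma adjusted p = 0.00503). Pilrb2 had 27.8 TPM in both ND libraries, against 6.2 and 5.4 in HFD, a log2 fold change of -2.08 (limma adjusted p = 0.00507). Both relatives were low in both HFD libraries, with no overlap between diets. Of the 50-base stretches in the exons 7.57% for Pilra, 30.1% for Pilrb1 and 29.2% for Pilrb2 also occur in another gene. The windows upstream of the 3 genes share a stretch of 196 bases, shown because these 3 genes moved together (RefSeq start sites, GRCm38.p6, minus strand). It runs from 196 to 1 bases before the start of Pilra and from 250 to 55 bases before those of Pilrb1 and Pilrb2. The search ended at the start of Pilra and at the window edge of Pilrb1 and Pilrb2, so the full extent was not measured. In GENCODE vM21 the 3 genes begin at 137836281 (Pilra), 137858106 (Pilrb1) and 137871815 (Pilrb2), near the same end of the stretch. The distances to the start sites thus depend on the annotation. Capitals mark the bases that differ from Pilra, 4 in Pilrb1 (98.0% identity) and 1 in Pilrb2 (99.5%).
Pilra, chr5:137836279-137836474: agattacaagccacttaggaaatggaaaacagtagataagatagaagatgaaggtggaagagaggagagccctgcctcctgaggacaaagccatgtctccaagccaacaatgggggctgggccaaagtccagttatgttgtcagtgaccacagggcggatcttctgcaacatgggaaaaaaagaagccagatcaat
Pilrb1, chr5:137858104-137858299: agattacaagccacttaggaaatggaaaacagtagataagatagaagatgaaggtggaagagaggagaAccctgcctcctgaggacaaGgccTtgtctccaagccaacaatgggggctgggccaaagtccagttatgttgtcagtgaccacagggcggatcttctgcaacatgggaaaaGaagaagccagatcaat
Pilrb2, chr5:137871813-137872008: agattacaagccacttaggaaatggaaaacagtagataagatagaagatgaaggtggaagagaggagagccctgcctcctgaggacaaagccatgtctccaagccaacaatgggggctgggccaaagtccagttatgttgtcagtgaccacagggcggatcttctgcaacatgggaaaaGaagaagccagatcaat

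Windows from 250 bases before to 50 after the start site were given for 8 of the 10 genes, all but Sirpa and Cd200r1. The letters AGGAAGT, searched on both strands, were present in those of Pirb, Cd300lf, Pilra, Ptpn6 and Inpp5d, 5 of 8, against 9.35% of 32851 such windows. A gene counted if any of its windows held the letters, whereas the percentages here are shares of single windows. Counts and percentages are therefore in unlike units, and the share of genes was not measured. TGAGTCA was in 0 of 8 (5.2% of all windows) and CACGTG in 0 of 8 (7.15%). GAGGAA was in 7 of 8 (28.3%) and GAGGAAGT in 3 of 8 (3.2%), and both can overlap AGGAAGT. The genes with AGGAAGT included members above, below and near their ND level, and a match is a description of letters only.

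Ptpn6 encodes SHP-1, the main phosphatase of ITIM receptors in myeloid cells, and lies at chr6:124720707-124738714. It measured 155.3 and 157.4 TPM under ND, compared with 147.6 and 145.2 under HFD, the highest level among the phosphatases. The diets did not overlap, but the difference was small, a log2 fold change of -0.09 (SE 0.04, interval -0.21 to 0.02, limma adjusted p = 0.162). Under quantile normalization it was -0.23 with an adjusted p of 0.0328.

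Inpp5d encodes SHIP-1, which removes the 5-phosphate of the lipid product of PI 3-kinase, and lies at chr1:87620312-87720507. It had 20.1 and 20.0 TPM in the ND libraries, against 18.8 and 19.6 TPM in HFD. The log2 fold change was -0.06 (SE 0.06, limma adjusted p = 0.521), and its interval of -0.24 to 0.12 leaves out a change of 1.5-fold in either direction. Ptpn11, at chr5:121130533-121191397, encodes SHP-2, which also acts downstream of growth factor receptors in most cells. It stood at 49.6 and 51.1 TPM on ND, against 39.6 and 38.4 on HFD. The log2 fold change of -0.36 (SE 0.05, interval -0.51 to -0.21) passed the adjusted p (0.0239, limma) and not the fold limit, and with median-ratio scaling the adjusted p was 0.079.

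**Figure D2:**
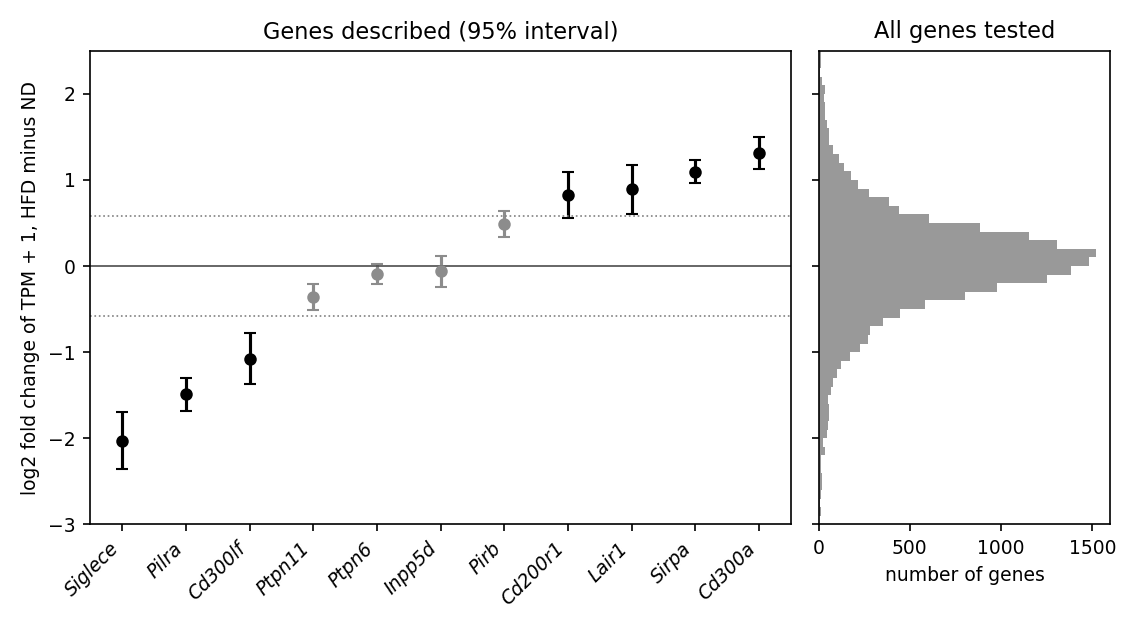
Log2 fold change (HFD minus ND) of each gene with its 95% interval from limma, black where called and grey where not, beside a histogram of all genes tested whose axis leaves out 137 genes, with dotted lines at 1.5-fold. Cd300a, Sirpa, Lair1 and Cd200r1 lie above the dotted lines and Siglece, Pilra and Cd300lf below them, while Pirb and the 3 phosphatases lie between them.

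Summed over the 7 receptors, the level was 399.7 and 413.2 TPM on ND, against 573.0 and 556.3 TPM on HFD. Summed over the 3 phosphatases, it was 225.0 and 228.5 TPM on ND, against 206.0 and 203.2 TPM on HFD. In percentage points the make-up of the receptor sum differed most for Pilra, which was 25.8% and 25.3% of it in ND and 6.07% and 6.83% in HFD. The share of Cd200r1 was 26.9% and 27.0% in ND and 36.6% and 32.6% in HFD, and that of Sirpa was 10.3% and 10.2%, then 15.9% and 16.0%. Pirb held about the same share in each library, 28.7% to 30.7%. In ND the order of mean levels was Pirb, Cd200r1, Pilra, Sirpa, Cd300a, Lair1 and Cd300lf, and in HFD it was Cd200r1, Pirb, Sirpa, Cd300a, Pilra, Lair1 and Cd300lf. The values of neighbours in either order did not overlap between libraries of the diet. The place and share of Pirb are uncertain, since 34.0% of its 50-base exon stretches occur in other genes, against 1.16% for Cd200r1.

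Siglece was then set beside these genes. It measured 14.8 and 16.7 TPM under ND, compared with 3.3 and 2.9 under HFD, a log2 fold change of -2.03 (SE 0.11, limma adjusted p = 0.00613), larger in size than that of any of the 10. The log2 level of Siglece was subtracted in each library, and the difference was tested. For all 10 genes the log2 fold change was less negative than that of Siglece by this test, but so did 96.4% of all genes (96.9% in either direction), since Siglece stood at the 97.7 percentile of change, so the count says nothing particular to these genes. The ratio of Sirpa to Siglece TPM was 2.77 and 2.51 in ND and 27.6 and 30.6 in HFD, and that of Pirb was 7.86 and 7.34, then 49.9 and 58.9. For Cd300lf the ratio was 0.128 and 0.12 in ND and 0.121 and 0.138 in HFD, so its ratio ranges overlapped. On the log2(TPM + 1) scale Cd300lf fell by less than Siglece, with a difference of 0.95 (interval 0.51 to 1.40, limma adjusted p = 0.00480), and with a pseudocount of 0.1 that difference was 0.27 with an adjusted p of 0.387. Pilra differed from Siglece by 0.54 (interval 0.18 to 0.91, limma adjusted p = 0.0161), and with a pseudocount of 5 by -0.04 with an adjusted p of 0.71. Without ND replicate 1 and without ND replicate 2 that adjusted p was 0.0562 and 0.0988.

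The same subtraction was made with the mean log2 level of the 6 macrophage markers. Of the 10 genes 9 had an adjusted p under 0.05, 5 higher and 4 lower, against 28.1% of all genes tested (9.72% higher and 18.4% lower). Cd300lf, which had to be lower, is among the 4, which leaves 8 of the other 9. Relative to these markers the difference was 1.20 for Cd300a, 0.98 for Sirpa, 0.77 for Lair1, 0.71 for Cd200r1 and 0.37 for Pirb. It was -1.60 for Pilra, -1.19 for Cd300lf, -0.48 for Ptpn11, -0.21 for Ptpn6 and -0.18 for Inpp5d, the last with a limma adjusted p of 0.126. That of Ptpn6 was 0.0468, and it was 0.0751 with no filter and 0.116 with no variance trend. When 4 common leukocyte genes replaced the macrophage markers, 7 of 10 passed, against 34% of all genes tested, and Ptpn6 (0.12), Inpp5d (0.16) and Ptpn11 (-0.14) did not, so the direction for Ptpn6 and Inpp5d depended on the reference. Without ND replicate 1 or without ND replicate 2, 0 of the 10 passed in limma relative to the macrophage markers. Among those markers Csf1r had 313.9 and 312.4 TPM in the ND libraries, against 217.4 and 206.8 TPM in HFD, a log2 fold change of -0.56 that was called (-0.71) under quantile normalization, without the 50 highest genes (-0.62) and without HFD replicate 1 (-0.60), while Adgre1 and Cd68 rose by 0.78 and 0.86 on the log2 scale.

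**Figure D3:**
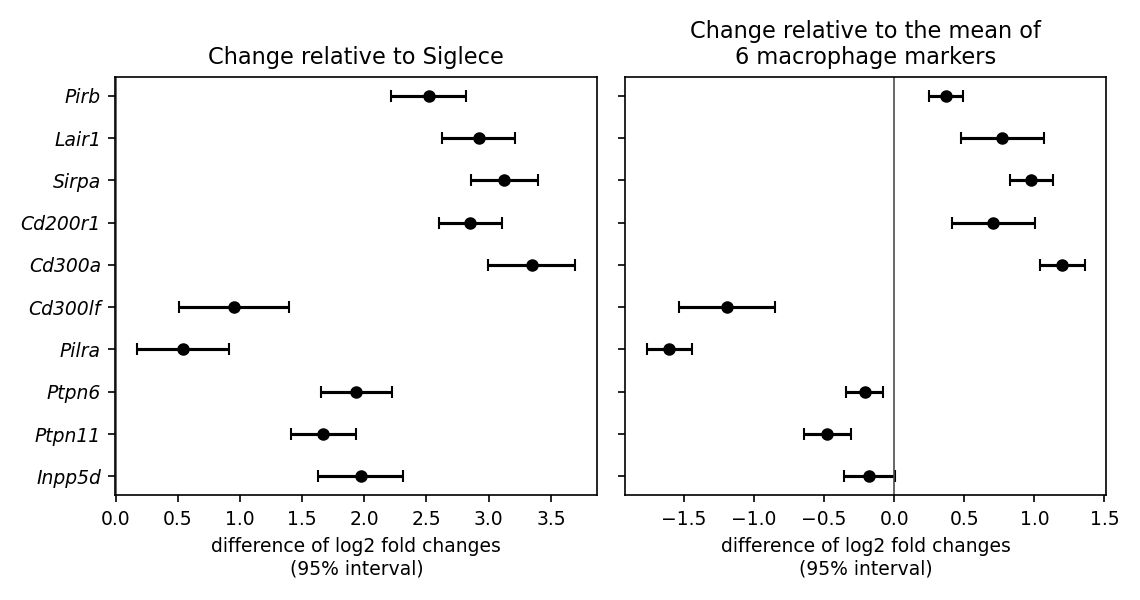
Difference between the log2 fold change of each gene and that of Siglece (left) or the mean of the macrophage markers (right), with 95% intervals. The horizontal scales of the panels differ. All genes lie to the right of 0 relative to Siglece, Pilra nearest to it, and only the 5 receptors from Pirb to Cd300a do so relative to the macrophage markers.

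In the SIRP and PILR families the activating relatives moved in the direction of the inhibitory receptor, and in the other families they did not all do so. Of 17 genes in this list 14 were listed and 13 tested, 6 called higher and 2 lower. Among all genes tested 8.08% were called higher and 10.3% lower, the shares that the counts of this and the following lists stand beside. Next to Cd300a, Cd300lb (46.4 and 48.4 TPM in ND, 118.6 and 103.1 in HFD) rose by 1.21 on the log2 scale. Cd300c2 (110.6 and 110.9, then 450.2 and 460.8 TPM) rose by 2.03, more than Cd300a, and Cd300ld (225.4 and 231.5, then 412.0 and 394.2 TPM) rose by 0.82. Within the CD300 cluster on chromosome 11 the inhibitory Cd300lf fell, and Cd300e (2.9 and 2.8, then 0.9 and 1.5 TPM) had a log2 fold change of -0.82 with a limma adjusted p of 0.0532. Dropping HFD replicate 1 changed this value for Cd300e to -0.62. Dropping HFD replicate 2 changed it to -1.02, with 0.9 TPM as the only HFD value left. In that case Cd300e passed the filter on low values only through ND and so had to be lower.

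Beside Sirpa, the SIRPβ genes Sirpb1a (3.6 and 3.5, then 7.1 and 8.6 TPM) and Sirpb1b (4.0 and 4.2, then 10.4 and 11.7 TPM) rose by 0.95 and 1.24 on the log2 scale, the former with an adjusted p of 0.0519 in limma under quantile normalization. Of their 50-base exon stretches 40.4% and 58.0% occur in other genes, so their values are uncertain, while for Sirpa the share was 0. Cd200r4 (4.9 and 5.8, then 9.5 and 9.5 TPM) rose by 0.73 beside Cd200r1. That call was lost with no filter (limma adjusted p = 0.0514), with a pseudocount of 5 (0.49, under the fold limit), and without HFD replicate 1 or 2 (adjusted p = 0.0823 and 0.0730). Cd200r2 had 2.2 and 2.4, then 1.3 and 0.6 TPM (log2 fold change -0.78, limma adjusted p = 0.0895). The PIR-A genes, activating partners of Pirb, were not called. Pira1, Pira2 and Pira6 had log2 fold changes of -0.14, -0.04 and 0.18, and 93.0% of the stretches of Pira2 are shared with other genes. Without ND replicate 2 the value for Pira2 was 0.011.

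**Figure D4:**
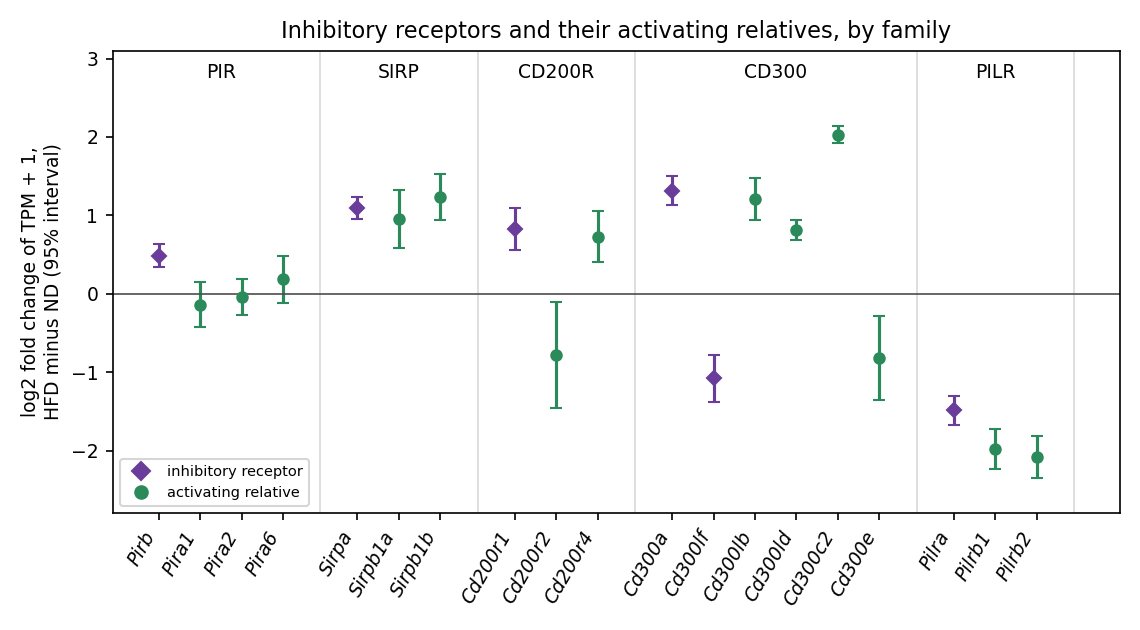
Log2 fold change of each inhibitory receptor and of its activating relatives, grouped by family, with 95% intervals from limma. The SIRP and PILR families lie on one side of 0 each, and the CD300 family has genes on both sides.

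The adaptors of the activating relatives had 3 genes, 1 called lower. This was Hcst (DAP10), with 114.5 and 109.3 TPM on ND, against 52.2 and 50.2 on HFD, a log2 fold change of -1.11. Tyrobp and Fcer1g had log2 fold changes of 0.24 and -0.28, both under the fold limit. Among the upstream kinases Fgr fell by 0.90 on the log2 scale (30.2 and 30.7, then 14.2 and 17.6 TPM), with an adjusted p in limma of 0.0231 that was 0.0530 with no filter and 0.0526 with median-ratio scaling, and Lyn, which phosphorylates ITIMs in myeloid cells, had a log2 fold change of -0.11 (limma adjusted p = 0.289).

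Of 13 ligands tested 6 were called higher and 2 lower, with a median log2 fold change of 0.24, and 5 in all were called with no filter on low values. Cd200, the ligand of Cd200r1, stood at 7.1 and 8.1 TPM on ND, against 20.2 and 19.7 on HFD and rose by 1.29 on the log2 scale. Cd47, the ligand of Sirpa, had 19.2 and 19.8, then 22.9 and 23.5 TPM (log2 fold change 0.24, limma adjusted p = 0.0654). The collagen genes, whose products Lair1 binds, were among the largest increases of the list. Col1a1 rose by 3.77 on the log2 scale (51.8 and 49.3, then 476.0 and 1028.1 TPM), Col1a2 by 3.20 and Col3a1 by 3.36. Col1a1 and Col3a1 are also fibroblast markers, and the part of fibroblast RNA in these values was not tested. H2-K1, a class I gene of the kind Pirb binds, and C1qa, a complement component that can bind LAIR1, each fell, with log2 fold changes of -0.62. Both calls were lost with median-ratio scaling (adjusted p = 0.0658 and 0.0767 in limma), that of C1qa also with quantile normalization (-0.49, under the fold limit) and that of H2-K1 also without HFD replicate 1 (-0.55).

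Among 10 other receptors with ITIMs 2 were called higher and 2 lower, with a median log2 fold change of 0.03. Cd72 had 6.8 and 7.2, then 26.8 and 28.0 TPM and rose by 1.83 on the log2 scale, and Clec12a had 134.7 and 142.8, then 284.4 and 284.6 TPM and rose by 1.03. Fcgr2b, the inhibitory Fc receptor that acts through SHIP-1, had 463.3 and 486.2, then 207.0 and 207.0 TPM and fell by 1.19, and Ceacam1 had 15.6 and 17.5, then 9.0 and 9.5 TPM and fell by 0.77. The call for Ceacam1 was lost without HFD replicate 1 (limma adjusted p = 0.0637) and without HFD replicate 2 (0.0503). Both directions were thus present in this list too. Of 9 Siglec genes, Siglece included, 2 were called higher and 4 lower, and 2 in all were called where the mean had to reach 5 TPM. With a pseudocount of 5 the value for Cd22 was 0.30, under the fold limit. Siglecg fell by 1.87 on the log2 scale from 8.2 and 8.1 to 1.4 and 1.6 TPM, and Cd22 rose by 0.73 from 1.2 and 1.2 to 2.7 and 2.6 TPM. Siglec15 rose by 3.13 on the log2 scale from 0.2 and 0.1 to 9.8 and 8.4 TPM, and Siglech fell by 2.52 from 6.2 and 7.3 to 0.4 and 0.3 TPM. Siglec15 passed the filter only through HFD and Siglech only through ND, so both had to differ in that direction.

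Of 11 substrates and partners of the phosphatases 0 were called higher and 2 lower. Dok2, an adaptor downstream of Cd200r1, measured 94.0 and 93.5 TPM under ND, compared with 61.2 and 52.8 under HFD and fell by 0.71 on the log2 scale, and Plcg2 fell by 0.64. Dok1, the other Dok adaptor of Cd200r1, had 23.2 and 23.9, then 34.0 and 31.7 TPM, a log2 fold change of 0.46 that passed the adjusted p (0.0238, limma) and not the fold limit. Of 10 other phosphatases 0 were called higher and 2 lower, Inpp4a (log2 fold change -0.74) and Inpp4b (-1.02), which act on the inositol lipids that SHIP-1 produces. Inpp4b passed the filter only through ND and so had to be lower, and with a pseudocount of 5 neither was called (-0.37 and -0.35).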

How the data were processed

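RNA of CD45+ cells from eWAT was sequenced in 2 ND and 2 HFD samples. The authors trimmed reads (Trim Galore 0.4.2, cutadapt 1.9.1), aligned them to mm10 with STAR 2.6.1e, removed duplicates with Sambamba and counted reads with featureCounts 1.6.2, and deposited TPM per gene to 1 decimal. The annotation and the use of strand are not given in the sources used here. TPM are shares of a library's RNA, so a gene can be lower because others are higher.

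Values were compared as log2(TPM + 1), which understates the change of low genes, with limma 3.58.1 in R 4.3.3 (variance trend), over genes with at least 1 TPM in at least 2 samples, with Benjamini-Hochberg adjustment. With 2 samples against 2 an exact two-sided permutation test cannot go below p = 0.333, which each of the 10 genes gave. Depth was estimated from microRNA genes and GENCODE vM21 exon lengths and is approximate. The steps were tested on simulated data.

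The genes and lists were chosen with earlier results of these data known. From each pathway list, up to 3 called increases and 3 called decreases were named. Other relatives, ligands, kinases and adaptors were named after their values were seen, as were the motifs. Alternatives were the pseudocount, filter, variance model, scaling, fold limit, replicate number as a block and leaving out each library. 1 result among the upstream kinases is not reported here.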

Additional observations from a re-analysis of the deposited data

How the results depend on the processing

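The number of genes called, 3097 of 16849, was 2015 with a pseudocount of 5, 1602 with a 2-fold limit and 0 to 4177 when 1 library was left out. It was 0 without ND replicate 1 or 2, 3029 without HFD replicate 1 and 4177 without HFD replicate 2. Leaving out a library leaves 1 sample in a diet, which is assumed to vary like the other diet. Over all genes, deviations from the diet means were not shared by equal replicate numbers (correlation -0.015). With 2 samples per diet, this 1 correlation cannot exclude a pairing or batch that affects part of the genes. With the replicate block 812 genes were called, 3 of the 10 described here (Sirpa, Cd300a and Pilra), and 3 of the 10 passed relative to macrophage markers. Of the 10, 6 were called, 0 to 6 when 1 library was left out, 4 with a pseudocount of 5 and 5 with a mean of at least 5 TPM, where Cd300lf failed the filter. Relative to macrophage markers 9 passed, 0 to 9 when 1 library was left out, and 7 relative to leukocyte genes. Alternatives to the macrophage result were added after seeing the data. Relative to Siglece 10 passed, 8 to 10 when 1 library was left out. All 127 results for the 10 genes in the comparison of HFD with ND kept their direction under the alternatives. Of these, 15 were no longer called, a count that leaves out genes not called in the main comparison, such as Pirb and Ptpn11. Some relative results changed sign. Relative to Siglece, Pilra went to -0.04 with a pseudocount of 5. Relative to leukocyte genes, Ptpn6 and Inpp5d went to 0.12 and 0.16. Among other genes, Pira2 ranged from -0.098 (without ND replicate 1) to 0.011 (without ND replicate 2) and Syk was -0.027 with quantile normalization, where 0.011 and -0.027 are opposite to the main sign. Of 593 results for other named genes under the alternatives 98 no longer passed and 5 newly passed. With the replicate block 1 ligand, 5 activating relatives and 0 substrates or other phosphatases were called. The cause of these differences was not tested. Between 0.0606 and 0.0711 TPM stood for 1 read per kb, so values under 1 TPM rest on few reads.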

Other observations

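The 5 genes whose profile over the 4 libraries lay nearest to that of Pilra were Prg4, Hs3st3b1, Klra5, Rab37 and Kcnk1, with Euclidean distances of 0.0505, 0.0522, 0.0550, 0.0645 and 0.0654 between log2(TPM + 1) values, each centred on its mean. Rab37 is also the gene whose span holds Cd300lf on the opposite strand. Klra5, Rab37 and Kcnk1 passed the filter on low values only through ND, so their lower level in HFD was fixed by that filter.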
